A study of Rattus norvegicus with 12 samples.

Results

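The platelet-derived growth factor (PDGF) family was followed in rat brain tumours through 4 ligand genes (Pdgfa, Pdgfb, Pdgfc and Pdgfd) and 2 receptor genes (Pdgfra and Pdgfrb). The members were all probes of the array whose annotated gene symbol is one of these names. This gave 5 probes of 22523, 1 each for Pdgfa, Pdgfb, Pdgfc, Pdgfd and Pdgfra. Pdgfrb had no probe in the annotation used here and was not analysed.

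The tumours were grown from 9L cells, a rat gliosarcoma line, and profiled on Illumina RatRef-12 bead arrays with 1 array per tumour. In 6 tumours the cells expressed EGFRvIII, a truncated epidermal growth factor receptor that signals without ligand, and in the other 6 they carried an empty vector (EV). The EGFRvIII cells were made by plasmid transfection. Selection with 600 µg/ml zeocin is listed for the samples of both groups. Both lines were placed in the cortex of untreated female Fischer rats of 4 to 6 weeks, 2 mm deep in 10 µL, and tumours were taken after 3 weeks. Each group rests on a single line, and whether it was a clone or a pool is not given, so the 6 rats of a group repeat the tumour but not the making of the cells. A difference between the lines and an effect of EGFRvIII cannot be told apart. In whole tumours, fewer cells of a type and less RNA per cell also cannot be told apart.

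PDGF ligands are secreted pairs of chains that bind and dimerise receptor tyrosine kinases. PDGF receptor alpha binds the A, B and C chains, and PDGF receptor beta binds the B and D chains. In brain, the alpha receptor is known from oligodendrocyte precursors, meningeal cells and fibroblasts, and the beta receptor from pericytes, which endothelial cells recruit through the B chain. In glioma, ligands and receptors of this family are often made by the tumour cells themselves.

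EGFRvIII arrays were dimmer than EV arrays: the 75th percentile of the signal averaged 109 ± 8.39 on EGFRvIII and 144 ± 10.8 on EV arrays (SD, n = 6 each, exact two-sided permutation p = 0.00216). The array's probe for rat Egfr gave no detection on any of the 12 arrays (0 of 12), and whether it reads the introduced transcript is not given, so it does not check the labels. EV rat 2 stood apart in markers of brain tissue, with a mean log2 level of neuron markers of 9.17, against at most 7.46 in the other EV tumours. EV rat 3 stood apart in macrophage and microglia markers, at 7.05 against at least 8.52 in the other EV tumours. Results are therefore also given without these tumours.

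The start regions of Pdgfra, the member whose transcript differed, and of Pdgfa, the measured ligand with the change nearest 0, follow as RefSeq gives them, from 250 bases before to 50 bases after the annotated gene start. Capitals mark matches on either strand to the CCAAT box (CCAAT), the AP-1 site (TGANTCA) and the Sp1 box (GGGCGG).
Pdgfra promoter, GRCr8 chr14:33408467-33408766, minus strand: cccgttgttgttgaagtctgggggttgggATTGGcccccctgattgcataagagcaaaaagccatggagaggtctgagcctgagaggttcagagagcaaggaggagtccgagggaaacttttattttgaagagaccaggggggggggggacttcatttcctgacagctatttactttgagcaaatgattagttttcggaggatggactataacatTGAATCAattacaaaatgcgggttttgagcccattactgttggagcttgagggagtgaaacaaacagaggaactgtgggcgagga
Pdgfa promoter, GRCr8 chr12:20759116-20759415, plus strand: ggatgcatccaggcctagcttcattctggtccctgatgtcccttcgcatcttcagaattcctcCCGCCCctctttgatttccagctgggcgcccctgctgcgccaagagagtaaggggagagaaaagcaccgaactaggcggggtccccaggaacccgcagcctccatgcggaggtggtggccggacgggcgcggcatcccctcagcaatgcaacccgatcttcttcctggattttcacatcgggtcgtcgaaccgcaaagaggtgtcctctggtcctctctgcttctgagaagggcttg
The Pdgfra window held 1 CCAAT box, 1 match to the AP-1 pattern and no Sp1 box. The N of that pattern accepts any base, and the match has A there, so it is a match to this loose pattern only. The Pdgfa window held 1 Sp1 box and neither of the other 2 motifs. Among 33469 rat windows of the same length, 37.5% held a CCAAT box, 7.3% a match to the same AP-1 pattern and 33.1% an Sp1 box. The window of Pdgfc, the other measured ligand, is not printed because it held none of the motifs searched, with 58% G and C. No TATA box (TATAAA), cyclic AMP response element (TGACGTCA) or E-box (CACGTG) was found in the printed windows. The Pdgfra window was also poorer in G and C, at 48%, than the Pdgfa window at 60.0%, with a median of 51.7% over all windows. These letters describe the windows and do not show where a factor binds.

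Of the 5 members with a probe, the alpha receptor and the A and C ligands were measured in every tumour, and the B and D ligands were detected in none. The receptor was lower in EGFRvIII tumours, to about 38.6% of its EV level. Neither measured ligand passed the test. A probe counted as detected on an array where its detection p was under 0.05. Probes detected on at least 6 of 12 arrays entered the test, which was passed at a Benjamini-Hochberg adjusted p under 0.05 in limma over 11695 genes. By this rule 1 of the 3 tested members was called, where 21.5% of all genes tested were called and 10.4% were called lower. With 3 genes, a count of 1 lies near that background.

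**Figure D1:**
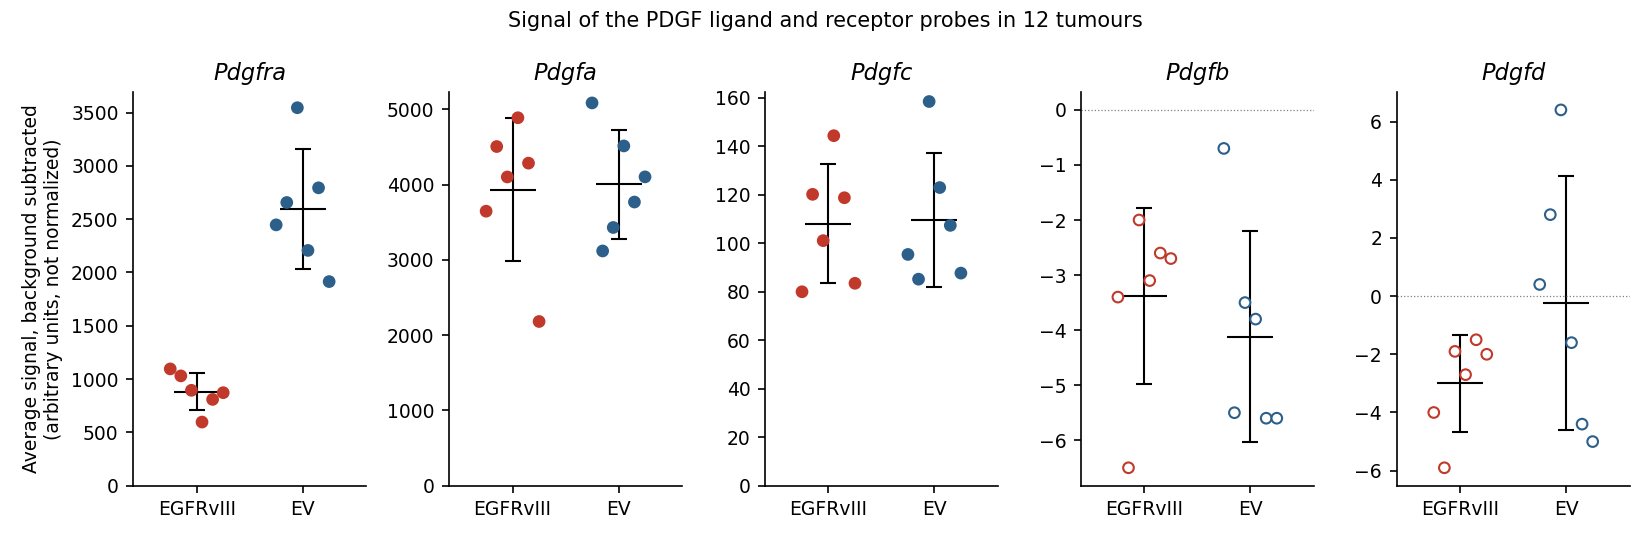
Deposited average signal of each member probe (vertical axes, arbitrary units, background subtracted and not normalized between arrays) in the 6 EGFRvIII tumours (red, left) and the 6 EV tumours (blue, right), ordered by rat number within a group. Filled points were detected (detection p under 0.05) and open points were not, and black bars give mean ± SD. Only the Pdgfra groups lie apart, and all Pdgfb and Pdgfd points are open.

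Pdgfra encodes the alpha receptor. Its deposited signal was 597 at the lowest, 883 at the median and 1095 at the highest in EGFRvIII tumours, against 1914, 2551 and 3545 in EV tumours. The groups did not overlap: the highest EGFRvIII tumour, rat 1, lay below the lowest EV tumour, rat 6. Non-overlap of this kind was seen in 11.1% of all genes tested. Within each group the highest tumour had less than 2 times the signal of the lowest (1.84 times in EGFRvIII and 1.85 times in EV tumours).

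After normalization, Pdgfra averaged a log2 level of 9.92 ± 0.39 in EGFRvIII tumours and 11.29 ± 0.44 in EV tumours (SD, n = 6 each). The change was -1.37 ± 0.21 (EGFRvIII minus EV, log2 ± SE, limma adjusted p = 0.000655), a level 2.59-fold lower. The 95% interval of the change ran from -1.83 to -0.92, or from 0.281 to 0.53 as a ratio of EGFRvIII to EV. In the order of changes from the lowest up, Pdgfra stood at place 93 of 11695. Leaving out any single tumour gave changes from -1.47 to -1.23 with adjusted p values up to 0.00217, and leaving out EV rats 2 and 3 together gave -1.15 ± 0.19 (adjusted p = 0.00197).

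Pdgfa encodes the A chain, a ligand of the alpha receptor alone. Its signal was 2181 at the lowest, 4193 at the median and 4888 at the highest in EGFRvIII tumours, against 3118, 3935 and 5085 in EV tumours. The groups overlapped between 3118 and 4888, and EGFRvIII rat 6 was the lowest of all 12. The log2 levels were 11.95 ± 0.28 in EGFRvIII and 11.94 ± 0.15 in EV tumours. The change of 0.01 ± 0.12 did not pass (limma adjusted p = 0.947). Its 95% interval, -0.25 to 0.28, leaves room for a ratio between 0.839 and 1.22.

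Pdgfc encodes the C chain, which is secreted with a CUB domain that a protease must remove before it can activate the alpha receptor. Its signal was 80.0, 110 and 144 (lowest, median and highest) in EGFRvIII tumours, against 85.2, 101 and 158 in EV tumours. On this unnormalized scale the groups overlapped over most of their range, with EV rat 3 the highest. The log2 levels after normalization were 7.12 ± 0.23 in EGFRvIII and 6.78 ± 0.34 in EV tumours, and the change of 0.34 ± 0.17 did not pass (limma adjusted p = 0.17, 95% interval -0.02 to 0.70). The value depended on the scaling and on 1 tumour. It was 0.14 ± 0.19 with arrays scaled to the same median, and it passed at 0.46 without EV rat 3 (limma adjusted p = 0.038). It did not pass without EV rats 2 and 3 together (0.39, adjusted p = 0.077) or without EV rat 2 (0.26, adjusted p = 0.298).

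Pdgfb encodes the B chain, the ligand through which endothelial cells recruit pericytes. Its signal lay between -6.5 and -2.0 in EGFRvIII tumours and between -5.6 and -0.7 in EV tumours, so it was below the subtracted background on all 12 arrays. The lowest detection p was 0.608 in EGFRvIII and 0.445 in EV tumours. No fold can be given, and a low level of transcript would not have been detectable with this probe.

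Pdgfd encodes the D chain, a ligand of the beta receptor that is also freed by proteolysis. Its signal lay between -5.9 and -1.5 in EGFRvIII tumours and between -5.0 and 6.4 in EV tumours. EV rat 3 came nearest to detection, with a detection p of 0.0869. The probe was detected on 0 of 12 arrays, and no fold is given.

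The measured members therefore did not change alike, and the differences between members were also computed within each array. There a brightness factor shared by all probes cancels, but an added background does not. This test was chosen after the values had been seen. Pdgfra did not overlap and the ligands changed little, so the outcome for pairs with Pdgfra was largely fixed by the values above. For those pairs the test restates the Pdgfra result and is no further support. The log2 difference of Pdgfra minus Pdgfa averaged -2.03 ± 0.57 in EGFRvIII and -0.65 ± 0.51 in EV tumours (SD, n = 6 each). It was lower by 1.39 in EGFRvIII tumours (-1.39), with no overlap between the groups (exact two-sided permutation p = 0.00216, which no split of the 12 tumours among all 924 can undercut, and 0.00325 adjusted over 3 pairs). On the deposited signals without normalization the same difference changed by -1.50, again with no overlap. Pdgfra minus Pdgfc changed by -1.71, with the same exact p of 0.00216. Pdgfc minus Pdgfa changed by 0.33 and did not pass (exact permutation p = 0.0671, and 0.87 on the deposited signals).

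Within a group, no relation between the levels of 2 members passed after adjustment over the 6 examined. In EGFRvIII tumours Pdgfc and Pdgfra ran in opposite directions (r = -0.80, exact permutation p = 0.0319, adjusted 0.192, rho = -0.94, exact p = 0.0167, n = 6). With the 2 tumours of most extreme Pdgfc set aside, which also narrows the range, r was -0.42. Leaving out 1 tumour at a time gave r between -0.89 and -0.67. In EV tumours the same pair gave r = 0.56 (exact permutation p = 0.246, rho = 0.14, p = 0.803) and r = -0.60 without EV rat 3. Pdgfa and Pdgfra gave r = -0.41 in EGFRvIII (exact permutation p = 0.353, rho = -0.71, p = 0.136) and -0.36 in EV tumours (p = 0.489, rho = -0.60, p = 0.242). Pdgfa and Pdgfc gave r = 0.58 in EGFRvIII (exact permutation p = 0.199, rho = 0.83, p = 0.0583) and 0.39 in EV tumours (p = 0.442, rho = 0.14, p = 0.803).

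By Pearson correlation over the 12 tumours after subtracting group means, the named genes that followed Pdgfra most closely were Scara3, a scavenger receptor-like gene (r = 0.938), Ocrl, an inositol polyphosphate phosphatase (r = 0.930), and Fam135a (r = 0.924). Of these, Scara3 was lower in EGFRvIII tumours by a similar amount (-1.40 ± 0.30, limma adjusted p = 0.00472). Pdgfa was followed most closely by Btg3, an antiproliferative factor (r = 0.959), Hoxb4 (r = 0.889) and Tsku (r = 0.888). Pdgfc was followed most closely by Akap1 (r = 0.948), Lypla1 (r = 0.939) and Golga1 (r = 0.938). These values are the highest among all genes tested on the same 12 arrays and serve as a description.

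The nearest measured genes on either side of Pdgfra in the GRCr8 gene order are Kit, the stem cell factor receptor, which lies next to it, and Chic2. Neither was called: Kit changed by -0.26 ± 0.13 (limma adjusted p = 0.181) and Chic2 by -0.02 ± 0.20 (adjusted p = 0.959). Around Pdgfa, Sun1 was not called (0.01 ± 0.14) and Zfp68 was lower (-0.78 ± 0.20, adjusted p = 0.0135). Around Pdgfc, Gria2 (-1.25 ± 0.90) and Gucy1b1 (-1.07 ± 0.42) were not called. Next to Pdgfb, the Polycomb protein gene Cbx7 was lower (-0.996 ± 0.279, adjusted p = 0.0215) and the ribosomal gene Rpl3 was not called (-0.05 ± 0.10). Around Pdgfd, Dcun1d5 was higher (0.46 ± 0.13, adjusted p = 0.0249) and Casp12 was not called (-0.47 ± 0.19). Around Pdgfrb, Slc6a7 (0.19 ± 0.10) and Slc26a2 (0.11 ± 0.09) were not called.

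Beyond the members, 5 lists of genes that act with the family held 87 genes, of which 65 had a named probe and 55 were tested. Of these, 10 were higher, 5 lower (1 of them, Flt3, tested only through its detection in EV tumours) and 40 not called, or 27.3% called against 21.5% of all genes tested. The median change of the 55 genes was 0.03, against 0.01 over all genes. With arrays scaled to the same median, 6 were higher and 8 lower, so the balance of directions in these lists depends on the scaling.

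**Figure D2:**
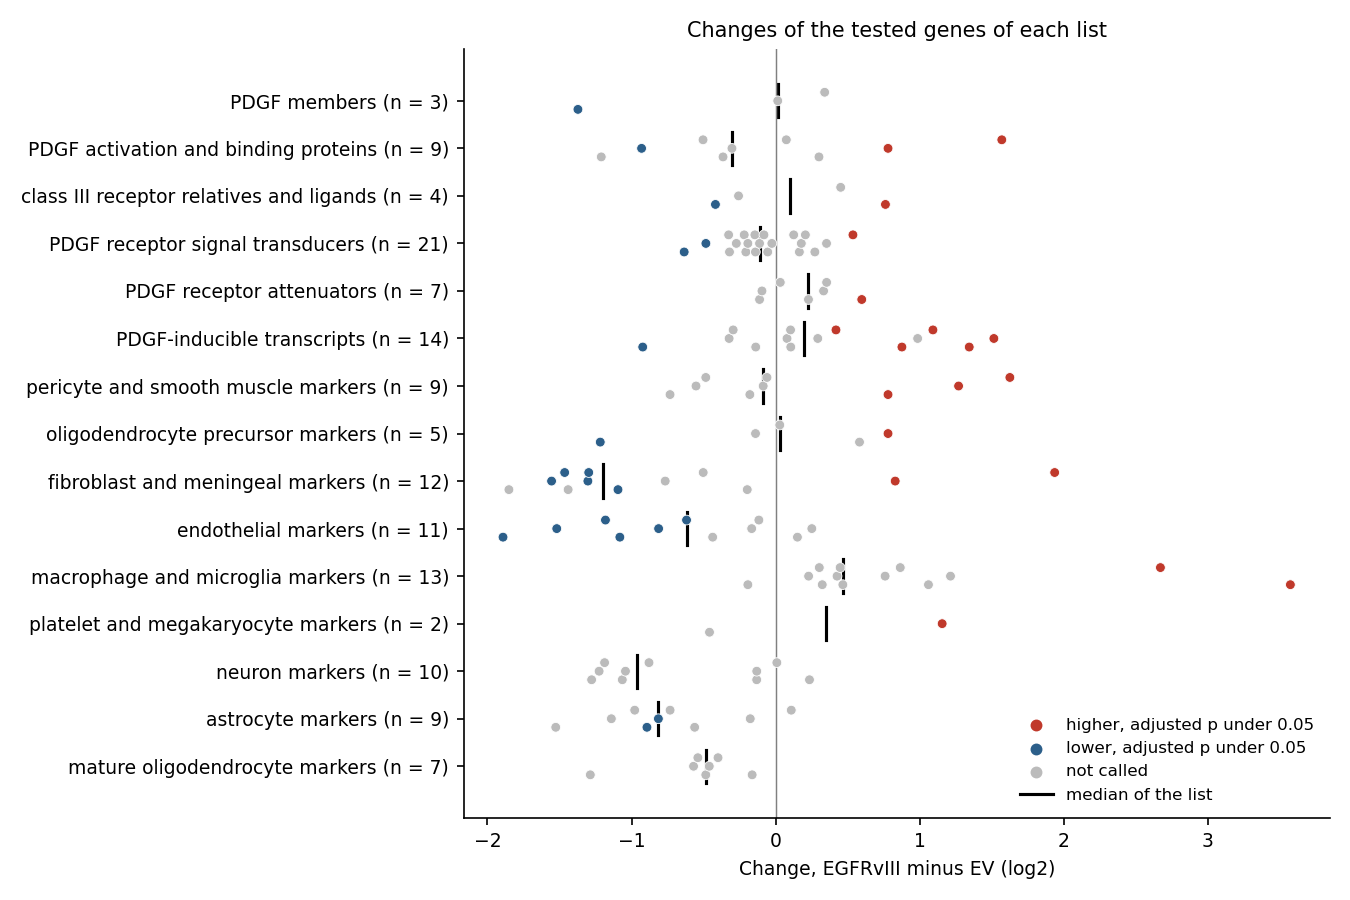
Change of every tested gene (horizontal axis, EGFRvIII minus EV, log2) in the members and in the 5 lists of pathway genes and 9 lists of cell type markers (vertical axis, with the number of genes tested). Red and blue points are genes called higher and lower, grey points were not called, and black bars are list medians. Most signal transducers lie close to 0. Fibroblast, endothelial, neuron, astrocyte and mature oligodendrocyte markers lie mainly to the left.

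Proteins that activate or bind PDGF went both ways: of 9 tested genes, 2 rose, 1 fell and 6 did not pass, with a median of -0.30. The plasminogen activators moved in opposite directions. Plau, the urokinase, which can activate the D chain, was 7.36 ± 0.61 in EGFRvIII and 5.79 ± 0.38 in EV tumours (log2, n = 6 each) and rose by 1.57 ± 0.27 (limma adjusted p = 0.00126). Plat, the tissue plasminogen activator, which removes the CUB domain from the C chain, was 9.09 ± 0.33 in EGFRvIII and 10.02 ± 0.31 in EV tumours and fell by 0.93 on the log2 scale (-0.93 ± 0.17, adjusted p = 0.00194). Cspg4, the NG2 proteoglycan, which binds the A chain, rose by 0.78 ± 0.17 (adjusted p = 0.00642). The matrix protein Sparc, which binds the B chain, changed by -0.36 ± 0.19 and the co-receptor Nrp1 by -0.50 ± 0.22, and neither passed (adjusted p = 0.191 and 0.117).

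Among the closest relatives of the PDGF receptors and their ligands, 1 of 4 tested genes rose, 1 fell and 2 did not pass, with a median of 0.10. Csf1, a macrophage growth factor, rose by 0.76 ± 0.25 (limma adjusted p = 0.0448), a call lost when EGFRvIII rat 1, 3, 4, 5 or 6, or EV rat 2, 3 or 6, was left out. The Csf1 call was also lost after median scaling (0.57, adjusted p = 0.141) and with array weights (0.54, adjusted p = 0.104). Without EV rats 2 and 3 together it was lost too (0.49, adjusted p = 0.188), and it held in 11 of 27 alternatives. Flt3, a receptor of dendritic cells and progenitors, was detected in 0 of 6 EGFRvIII and 6 of 6 EV tumours and was at least 1.13-fold lower in EGFRvIII tumours. It entered the test only through its detection in EV tumours, so its place among the genes that fell is no support for a direction of the list. That bound sets the EV mean against the lowest detected level on each EGFRvIII array. Kitlg, the ligand of Kit, changed by 0.45 ± 0.21 and did not pass (adjusted p = 0.141).

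Of 21 tested transducers that carry the signal of the receptor into the cell, 18 were not called, 1 was higher and 2 were lower, with a median of -0.11. Plcg1, phospholipase C gamma, which docks on the activated receptor, was 8.45 ± 0.32 in EGFRvIII and 9.08 ± 0.18 in EV tumours and fell by 0.63 (-0.63 ± 0.15, limma adjusted p = 0.00745). Gab1, a docking protein, fell by 0.48 (-0.48 ± 0.13, adjusted p = 0.0186), and the transcription factor Stat5b rose by 0.54 ± 0.16 (adjusted p = 0.0327). The adaptor Shc1 changed by -0.32 ± 0.12 and did not pass (adjusted p = 0.0837). The Stat5b call was lost when EGFRvIII rat 1, 2, 3, 4 or 6, or EV rat 6, was left out, and after median scaling (0.35, adjusted p = 0.18). It was also lost with the rat number as a block (0.54, adjusted p = 0.0609), and with the mean of brain tissue markers as a covariate (0.42, adjusted p = 0.0682). The Gab1 call was lost without EV rats 2 and 3 together (adjusted p = 0.0507). With no filter on dim probes neither Stat5b (adjusted p = 0.0528) nor Gab1 (adjusted p = 0.0561) passed, which left 1 transducer called.

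Of 7 tested attenuators of the receptor, 1 was higher and 6 were not called, with a median of 0.23. The ubiquitin ligase Cblb, which marks activated receptors for degradation, rose by 0.60 ± 0.15 (limma adjusted p = 0.0138), and did not pass after median scaling (0.40, adjusted p = 0.0706). The phosphatase Ptpn2 changed by 0.33 ± 0.12 and did not pass (adjusted p = 0.0637). The count of called attenuators was 2 when EGFRvIII rat 1, EGFRvIII rat 6 or EV rat 4 was left out.

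Transcripts known to rise in cells given PDGF or serum included 5 higher, 1 lower and 8 not called of 14 tested, with a median of 0.20. Hmga1, a chromatin protein, rose by 1.52 ± 0.32 (limma adjusted p = 0.00498), the chemokine Cxcl1 by 1.34 ± 0.24 (adjusted p = 0.00177) and the transcription factor Myc by 1.09 ± 0.27 (adjusted p = 0.0122). Jun, a subunit of AP-1, was 8.90 ± 0.21 in EGFRvIII and 9.82 ± 0.31 in EV tumours and fell by 0.92 (-0.92 ± 0.15, adjusted p = 0.000776). Fos (0.11 ± 0.40) and Egr1 (-0.32 ± 0.40) did not pass. The same transcripts respond to the epidermal growth factor receptor and other receptors, so they do not measure PDGF signalling alone. Myc did not pass without EV rats 2 and 3 together (0.95, adjusted p = 0.0562).

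Markers of the cell types that carry the alpha receptor were measured in the same tumours. Whether 9L cells or host cells made these transcripts was not tested. Of 12 tested fibroblast and meningeal markers, 5 were lower, 2 higher and 5 not called, with a median of -1.20. Their summed level, off the log scale, ranged from 7689 to 9854 in EGFRvIII and from 10690 to 26800 in EV tumours, without overlap, and bright collagen probes such as Col1a2 weigh most in such a sum. Their mean log2 level, in which each marker counts alike, overlapped, at 7.92 to 8.61 in EGFRvIII and 8.35 to 9.96 in EV tumours. All 14 markers with a probe were detected on at least 1 array. Mgp, matrix Gla protein, was lower (-1.55 ± 0.39, limma adjusted p = 0.0119) and Dpt, dermatopontin, was higher (1.94 ± 0.35, adjusted p = 0.00171). Of 5 tested oligodendrocyte precursor markers, Vcan, the proteoglycan versican, was lower (-1.22 ± 0.12, adjusted p = 2.1e-05) and Cspg4 higher, while Olig1 (0.58 ± 0.59), Olig2 (0.03 ± 0.12) and Sox10 (-0.14 ± 0.41) were not called. The median of these 5 was 0.03, and Neu4 was detected on 0 arrays. Their summed level was 1886 to 2809 in EGFRvIII and 3823 to 5817 in EV tumours, a sum that Vcan dominates at a log2 level of 10.83 in EGFRvIII and 12.05 in EV tumours. Their mean log2 level overlapped, at 7.06 to 7.79 in EGFRvIII and 6.83 to 8.32 in EV tumours.

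Pdgfra was also set against the mean level of the fibroblast and meningeal markers within each group. Such relations were examined after the data had been seen, among 54 between the 3 tested members and 9 marker lists in each group, and none passed after adjustment. In EGFRvIII tumours r was 0.89 (exact permutation p = 0.0347, adjusted 0.363, rho = 0.89, exact p = 0.0333, n = 6), and 0.80 with the 2 tumours of most extreme marker level set aside. In EV tumours r was 0.83 (exact permutation p = 0.0236, adjusted 0.363, rho = 0.83, exact p = 0.0583, n = 6), and 0.26 without the 2 farthest tumours, so there it rests on them. With the mean of these markers as a covariate, chosen after the data had been seen, the Pdgfra change was -0.87 ± 0.19 and still passed (limma adjusted p = 0.0146). This value is over 1.5 times smaller in size than the change without the covariate, and 804 of all genes passed under it. Other lists came near the r of the fibroblast list with Pdgfra. Astrocyte and mature oligodendrocyte markers gave 0.71 and 0.73 in EGFRvIII tumours, and 0.265 and 0.24 in EV tumours. Macrophage and microglia markers gave 0.02 in EGFRvIII and -0.79 in EV tumours. Both rho values of the fibroblast list had an adjusted exact permutation p of 0.87.

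**Figure D3:**
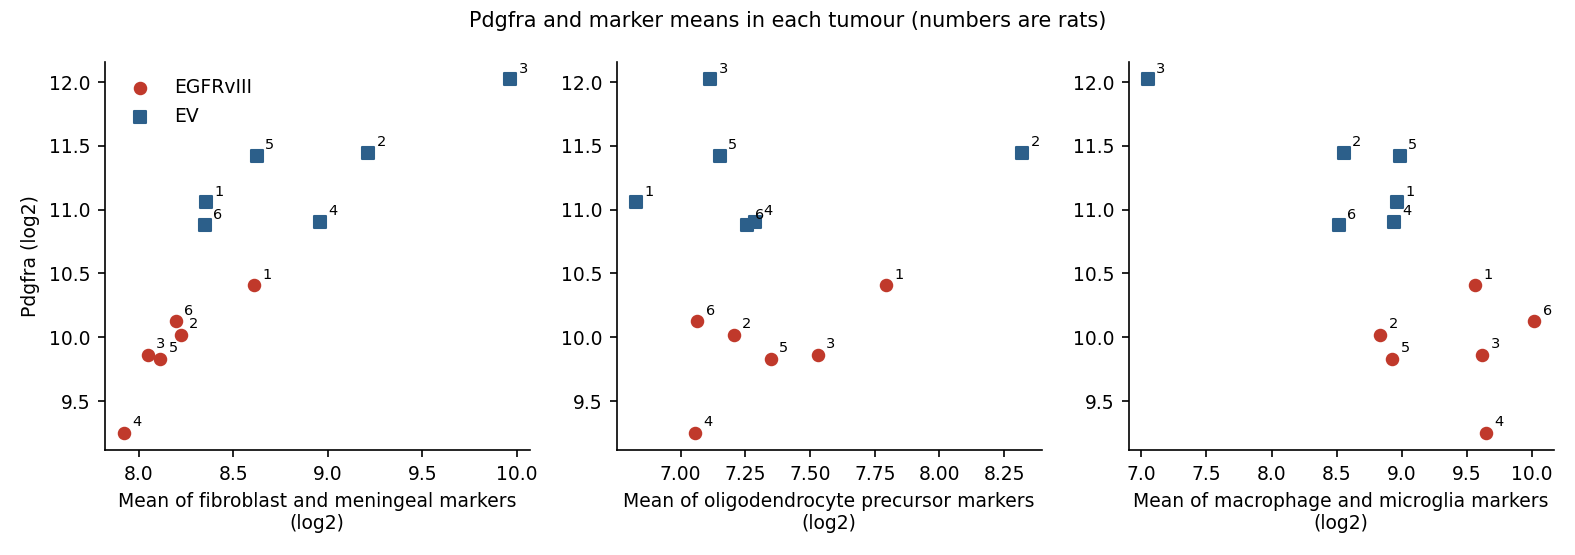
Pdgfra (vertical axis, normalized log2 level) against the mean log2 level of 3 marker lists (horizontal axes) in the 6 EGFRvIII tumours (red circles) and the 6 EV tumours (blue squares), with rat numbers beside the points. EGFRvIII rat 1 lies below EV rat 5 in Pdgfra at nearly the same fibroblast and meningeal marker mean (8.61 in EGFRvIII rat 1 and 8.62 in EV rat 5), and EV rat 3 lies apart in Pdgfra, in these markers and in macrophage markers.

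Some markers of other cell types differed as well. Of 11 tested endothelial markers, 6 were lower and 0 higher (median -0.62), with Slco1c1, a transporter of brain vessels (-1.89 ± 0.42, limma adjusted p = 0.00607), and Plvap, a vessel diaphragm protein (-1.52 ± 0.42, adjusted p = 0.019), leading. Their summed level was 1288 to 2593 in EGFRvIII and 2903 to 5056 in EV tumours. Of 9 tested pericyte and smooth muscle markers, the cell type of the beta receptor, 3 were higher and 0 lower (median -0.09). The aminopeptidase Anpep rose by 1.63 ± 0.22 (adjusted p = 0.000248) and the filament protein Des by 1.27 ± 0.20 (adjusted p = 0.000655), whereas Rgs5, which pericytes express strongly, changed by -0.48 ± 0.17 and did not pass (adjusted p = 0.0628). Notch3 and Cnn1 were detected on 0 arrays, and the summed level was 923 to 1722 in EGFRvIII and 785 to 1156 in EV tumours.

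Of 13 tested macrophage and microglia markers, 2 were higher and 11 not called (median 0.47), and the summed level was 14920 to 31430 in EGFRvIII and 3352 to 21910 in EV tumours. The mannose receptor Mrc1 rose by 3.57 ± 0.45 (limma adjusted p = 0.000148) and the lipid receptor Trem2 by 2.67 ± 0.21 (adjusted p = 3.5e-06). Of 2 tested platelet markers, the chemokine Pf4 rose by 1.16 ± 0.28 (adjusted p = 0.0106). The other, Gp1bb, changed by -0.46 ± 0.27 and did not pass (adjusted p = 0.243). Ppbp, Gp9 and Treml1 were detected on 0 arrays. Summed platelet levels were 248 to 342 in EGFRvIII and 189 to 501 in EV tumours. With the macrophage marker mean as a covariate, also chosen after the data had been seen, Pdgfra changed by -1.07 ± 0.25 (adjusted p = 0.0149) and Pdgfc by 0.65 ± 0.18, which then passed (adjusted p = 0.0326).

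Markers of brain tissue were mostly not called, but their median changes were -0.96 (neuron), -0.81 (astrocyte) and -0.48 (mature oligodendrocyte). Tumours of the same group differed widely in these markers, so the lack of calls does not show equal brain content. Of 9 tested astrocyte markers the gap junction gene Gja1 (-0.81 ± 0.08, limma adjusted p = 3.8e-05) and the chaperone Clu (-0.89 ± 0.24, adjusted p = 0.0192) were lower, and the Clu call was lost without EV rats 2 and 3 together (-0.62, adjusted p = 0.0634). The summed astrocyte level was 6814 to 11160 in EGFRvIII and 11580 to 24730 in EV tumours, with much of it from Gja1, whose log2 level was 12.26 in EGFRvIII and 13.08 in EV tumours. The mean log2 level of the list overlapped, at 7.12 to 8.54 in EGFRvIII and 7.41 to 10.24 in EV tumours. Gfap, the astrocyte filament that some gliosarcoma cells also make, was detected on all arrays and changed by -1.14 ± 0.64 (adjusted p = 0.226). None of 10 tested neuron markers was called by limma, 0 had an unadjusted p under 0.05, and their summed level was 752 to 3924 in EGFRvIII and 743 to 11110 in EV tumours. None of 7 tested mature oligodendrocyte markers was called by limma and 0 had an unadjusted p under 0.05, with summed levels of 480 to 1799 in EGFRvIII and 704 to 4113 in EV tumours. With the mean of these 3 brain lists as a covariate, Pdgfra changed by -1.26 ± 0.21 (adjusted p = 0.00146). With that brain covariate Pdgfa changed by -0.032 ± 0.131 (adjusted p = 0.896) and Pdgfc by 0.25 ± 0.16 (adjusted p = 0.322), and neither passed. With the fibroblast covariate neither passed either, at -0.046 ± 0.165 for Pdgfa (adjusted p = 0.918) and 0.50 ± 0.22 for Pdgfc (adjusted p = 0.202). No fit was made with the pericyte, endothelial, platelet or oligodendrocyte precursor markers as a covariate.

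**Figure D4:**
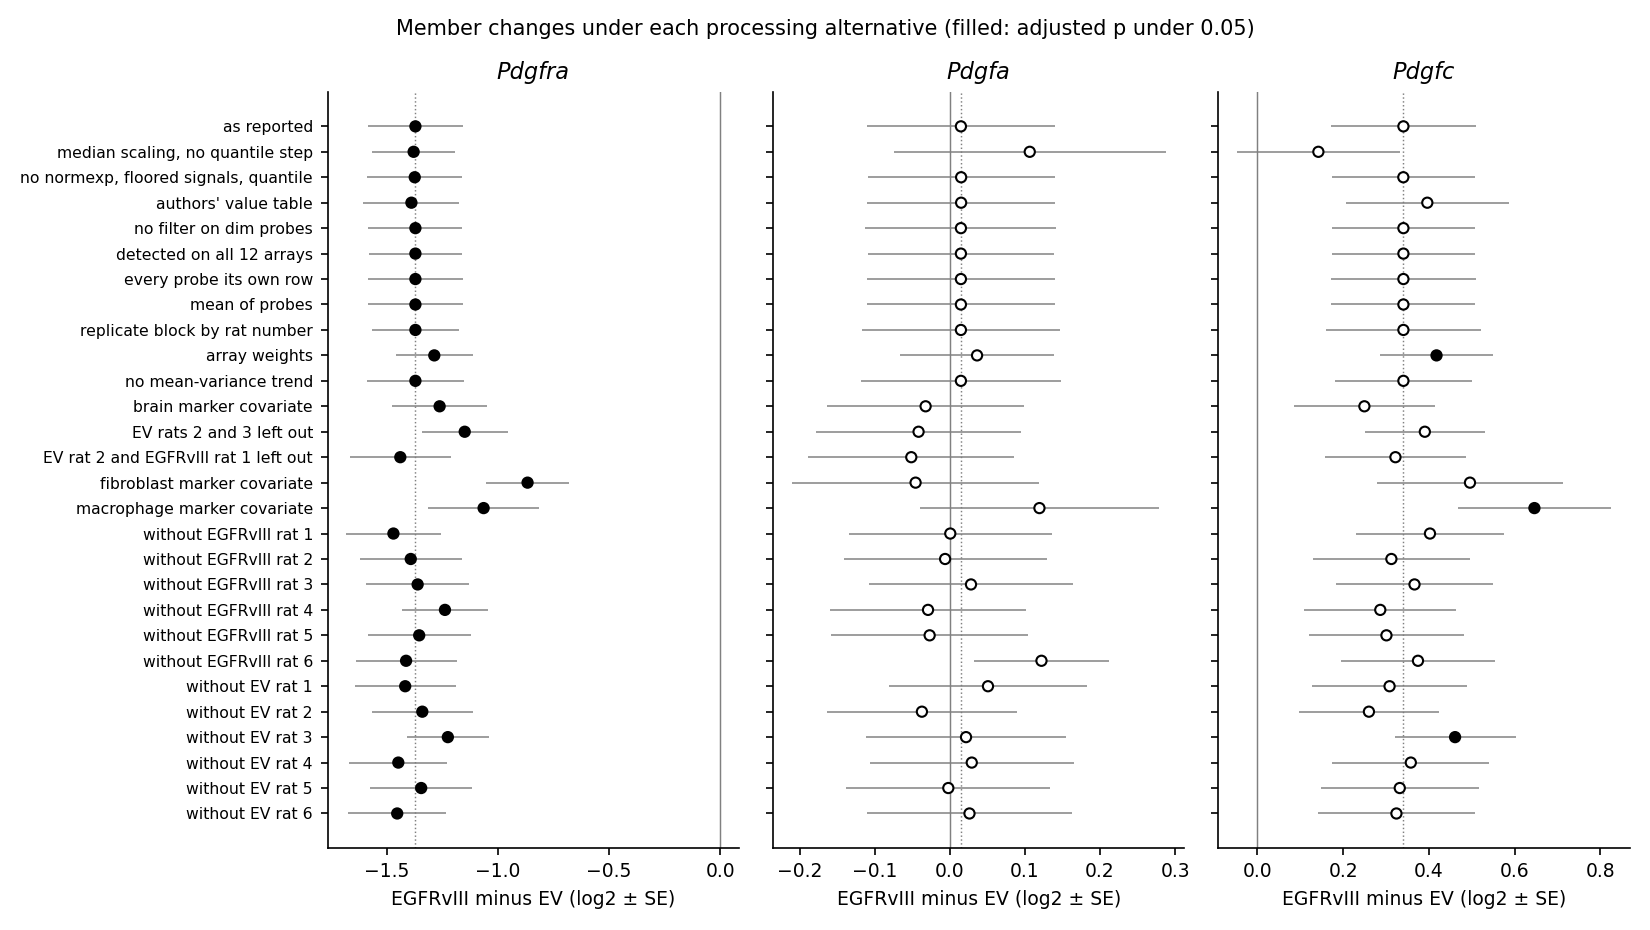
Change of Pdgfra, Pdgfa and Pdgfc (horizontal axes, EGFRvIII minus EV, log2 ± SE; each panel has its own scale) as reported and under each alternative (vertical axis), with filled points where the adjusted p was under 0.05. Pdgfra stayed lower and past the threshold throughout, between -1.47 and -0.87, Pdgfa stayed near 0, and Pdgfc passed in 3 alternatives.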

How the data were processed

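Whole tumours, 6 EGFRvIII and 6 EV, were measured on 1 array each from about 100 ng of RNA, per the labels' protocols. Per the file headers, the deposited table holds average signal intensity, not normalized; values below 0 show that the authors had subtracted a background. The deposited detection score is a fraction from 0 to 1, and 1 minus it was taken as the detection p. The values of the authors' processed table look like log2 levels brought to 1 distribution. The submitters' processing notes name Partek without its steps. No column was left without a sample.

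Intensities were corrected with neqc in limma 3.58.1 (R 4.3.3), with an offset of 16, log2 and quantile normalization. The filter asked for detection (p under 0.05) on 6 or more of the 12 arrays and left 11862 probes, and the probe with the highest mean represented a gene, which left 11695 genes. Of 22523 probes, 13793 had 1 symbol and 8730 had none or more than 1. The two-sided limma test (lmFit, then eBayes with a trend in the variance) used Benjamini-Hochberg adjustment over all genes and 10 residual degrees of freedom. A change is EGFRvIII minus EV. P-values measure the spread between rats. The number of arrays limits the precision. The fit was tested on simulated data. Figures used matplotlib 3.10.9 in Python 3.11.15.

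Of the list symbols, 165 matched a probe and 41 did not. The named genes were the members, up to 4 called genes per pathway list and 2 per marker list with the largest change, the 3 genes most like each tested member and the nearest measured neighbour on each side. Some uncalled list genes were named after their values were seen. Members, lists and tests were chosen with earlier results of these data known.

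Rats carry the numbers 1 to 6 in both groups. After group means were removed, same-numbered tumours had correlations between -0.34 and -0.06, and the best partner shared the number for 0 of 6. No pairing by number was thus visible in the levels, which cannot show whether same-numbered rats were handled together. Alternatives covered the background and scaling, the authors' values, the filter, the choice of probe, the design and each array left out.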

Additional observations from a re-analysis of the deposited data

Results flagged for a closer look

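In a group of 6 tumours, a value was singled out where its gap to the next, divided by the range of the group, was above 0.625. Of 78 groups examined 14 met this, where chance gives about 1 in 20. Several lists share genes or tumours, so these are not independent.

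Among the members only undetected probes were singled out, with differences inside the background. Pdgfb had a log2 level of 4.21 in EGFRvIII rat 2, against 4.25 to 4.27 in the other EGFRvIII tumours, and 4.32 in EV rat 1, against 4.22 to 4.24 in the other EV tumours. Pdgfd had 4.62 in EV rat 3, against 4.24 to 4.37 in the other EV tumours.

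EV rat 2 stood apart in 5 values. Its mean log2 level of oligodendrocyte precursor markers was 8.32 (others 6.83 to 7.29), of platelet markers 7.33 (6.35 to 6.70), of astrocyte markers 10.24 (7.41 to 8.29) and of mature oligodendrocyte markers 8.79 (5.81 to 6.43), and its Stat5b level was 6.97 (7.74 to 7.94). EV rat 3 had a macrophage and microglia mean of 7.05 (8.52 to 8.99). EV rat 6 had a pericyte and smooth muscle mean of 6.745 (6.17 to 6.32). EGFRvIII rat 1 had an astrocyte mean of 8.535 (7.12 to 7.47). EGFRvIII rat 6 had a Cspg4 level of 6.96 (7.69 to 8.09), an Hmga1 level of 7.42 (8.71 to 9.40) and a Plvap level of 8.305 (5.91 to 6.79).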

How the results depend on the processing

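Pdgfra stayed lower and past the threshold under all 27 alternatives (-1.47 to -0.87, adjusted p up to 0.0149). Leaving out 1 tumour at a time gave -1.47 to -1.23 for Pdgfra, -0.037 to 0.122 for Pdgfa, 0.26 to 0.46 for Pdgfc, 1 to 2 members called, 1959 to 2504 genes called and 12 to 15 pathway genes called. Pdgfa never passed; its sign turned with the brain covariate (-0.032), without EV rats 2 and 3 (-0.042), without EV rat 2 and EGFRvIII rat 1 (-0.051) and with the fibroblast covariate (-0.046). Pdgfc passed with array weights (0.42, adjusted p = 0.0303), with the macrophage covariate (0.65) and without EV rat 3 (0.46), so 2 members were called there; the cause was not tested. With the fibroblast covariate 804 genes in all and 5 pathway genes passed, and with the macrophage covariate 1475 and 9. Both covariates were added after the data had been seen. Of the genes called, 51.6% were higher, and 29.9% (768 higher, 1799 lower) with arrays scaled to the same median. The replicate block by rat number gave 1817 genes called, -1.37 ± 0.20 for Pdgfra (adjusted p = 0.00357) and changed no member's call. Over the arrays left out, r of Pdgfa and Pdgfc in EV tumours was -0.21 to 0.67, and of Pdgfc and Pdgfra in EV tumours -0.60 to 0.83, so both signs rest on single tumours. The signals of Pdgfb and Pdgfd, at or below background, limit what can be said of those ligands.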

Other observations

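A gene outside the members, Pdgfrl, which encodes a protein resembling part of the PDGF receptors, was noticed after its values had been seen. It was lower in EGFRvIII tumours, at a log2 level of 5.03 ± 0.10 in EGFRvIII and 6.23 ± 0.41 in EV tumours (SD, n = 6 each). Its change was -1.19 ± 0.17 (limma adjusted p = 0.000338), the groups did not overlap, and it was detected in 6 of 6 tumours of each group.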
